A study of Mus musculus with 15 samples.

Results

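Left-ventricular heart muscle cells taken 5 days after a whole-body proton exposure were compared with cells taken 3 days after the same exposure. The comparison rests on 6 of the 15 arrays of the series, the 3 that the sample titles place at day 5 and the 3 at day 3, and it uses no sham arrays. All mice were adult C57Bl/6NT (Taconic) males, 8 to 9 months old, and those of both groups had received 90 cGy of 1 GeV protons. The 2 groups therefore share strain, sex, age and dose and differ, by the labels, in the day alone. The design text of the series lists days 1, 3, 7, 14 and 28, so the day called 5 here follows the sample titles. Cells were freed from the heart by collagenase through the aorta and selected in a calcium gradient, with over 90% calcium-tolerant cardiomyocytes by the labels, which allow that a few inflammatory or endothelial cells were present. The labels do not say which arrays came from different mice or which were processed together, so the p-values gauge nothing beyond the scatter among the samples at hand, which may be technical.

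RNA was read on single-colour arrays as a log2 signal for 34760 probe sets, and 12102 genes with 1 symbol and a mean signal above the median of all probe sets, 5.00, were tested. Replicates 1 and 2 of day 5 held almost equal values. Over the genes tested their log2 differences had an SD of 0.0768, while the rest of the 105 pairs of arrays gave 0.222 to 0.527. They were averaged and counted once, which leaves 2 samples at day 5 and 3 at day 3, and this small number limits the precision of every value. The label of the cells was checked with their markers. All 15 cardiomyocyte markers were measured, with alpha-cardiac actin (Actc1) at 12.60 to 12.62 and the alpha myosin heavy chain Myh6 at 11.84 to 11.99 over the 5 samples, and the median difference of the 15 genes was -0.05. Day 3 replicate 3 stood apart from its group in genes of other cells. Its mean deviation for the 21 macrophage and monocyte markers was 0.74, against -0.66 and -0.48 in the other day 3 samples and 0.19 and 0.22 at day 5. The mean deviations of the endothelial, fibroblast, mesothelial and extracellular matrix lists were likewise highest in that sample. So was that of the joint list of complement and MHC class II genes, although its member H2-Ab1 was at 7.89 there and at 8.06 and 7.96 at day 5.

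A striated muscle cell lives on a dense mitochondrial network that burns fatty acids and glucose, and it keeps glycogen as a store. Its protein synthesis depends on ribosomes, whose RNA is trimmed and chemically modified with the help of small nucleolar RNAs. H/ACA box RNAs direct pseudouridine formation, C/D box RNAs guide 2'-O-methylation, and a few members of both classes act in RNA cleavage. Small Cajal body RNAs do the same for the RNAs of the spliceosome. In mammals most of these RNAs are not made from genes of their own: they are cut out of introns of a host gene, often a gene for a ribosomal protein or a noncoding host transcript (Snhg), while the spliced host RNA follows its own fate.

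Between day 3 and day 5, 1 gene passed an adjusted p of 0.05. Scarna13, a Cajal body RNA with H/ACA boxes, had signals of 8.40, 8.24 and 8.34 at day 3 and of 9.77 (replicates 1 and 2 averaged) and 9.51 at day 5, so the groups lay far apart beside their own spread. It rose from 8.33 ± 0.08 (SD, n = 3) to 9.64 ± 0.18 (SD, n = 2). The rise was 1.31 ± 0.13 on the log2 scale (SE; limma adjusted p = 0.0206), or 2.48-fold. The share of all genes called higher was 0.00826%, and no gene was called lower (0%). At an unadjusted p under 0.05 the same limma fit counted 210 genes with higher values at day 5 (1.74%) and 434 with lower values (3.59%), 644 together, where 605 would be expected by chance among 12102. The median difference over all genes was -0.0049, 31 genes had higher values by more than 1 on the log2 scale and 0 had lower values by as much. The Scarna13 call was lost without day 3 replicate 1, day 3 replicate 2 or day 5 replicate 3, and in 5 further settings named in the closing section.

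The genes nearest to the threshold included small RNAs with higher values and genes of glucose and glycogen metabolism with lower values. None of the 122 other genes that the naming rule picked passed the test, with adjusted p-values of 0.071 or more, so the values below describe these samples and are not calls.

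Scarna13 lies within the noncoding gene Snhg10, and the RNAs that came next in the small RNA set lie within Snhg12 (Snora44 and Snora16a), Snhg3 (Snora73b) and the ribosomal protein gene Rpl27a (Snora3). The promoters of these 4 host genes are shown because the small RNAs cut from them include those of the smallest p among the higher genes. Each sequence is from RefSeq, build GRCm38.p6, and holds 250 bases before the annotated first base of the transcript and 50 bases from it on. Capitals mark the unbroken run of C and T that covers the first base, a feature of genes of the translation machinery, or that base alone where it is neither C nor T.
Snhg10 promoter, chr12:105032230-105032529, minus strand: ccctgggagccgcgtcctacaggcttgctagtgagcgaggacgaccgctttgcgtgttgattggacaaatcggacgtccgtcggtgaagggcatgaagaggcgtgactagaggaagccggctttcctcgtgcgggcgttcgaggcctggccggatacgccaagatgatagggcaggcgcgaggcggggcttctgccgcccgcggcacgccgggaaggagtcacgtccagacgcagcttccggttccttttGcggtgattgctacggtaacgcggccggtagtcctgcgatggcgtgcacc
Snhg12 promoter, chr4:132308428-132308727, plus strand: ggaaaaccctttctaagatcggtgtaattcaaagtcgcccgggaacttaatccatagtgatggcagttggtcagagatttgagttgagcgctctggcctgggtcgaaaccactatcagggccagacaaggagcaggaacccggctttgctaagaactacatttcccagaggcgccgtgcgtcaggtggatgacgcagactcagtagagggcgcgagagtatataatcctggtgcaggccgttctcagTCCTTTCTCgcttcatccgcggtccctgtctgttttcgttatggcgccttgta
Snhg3 promoter, chr4:132353637-132353936, minus strand: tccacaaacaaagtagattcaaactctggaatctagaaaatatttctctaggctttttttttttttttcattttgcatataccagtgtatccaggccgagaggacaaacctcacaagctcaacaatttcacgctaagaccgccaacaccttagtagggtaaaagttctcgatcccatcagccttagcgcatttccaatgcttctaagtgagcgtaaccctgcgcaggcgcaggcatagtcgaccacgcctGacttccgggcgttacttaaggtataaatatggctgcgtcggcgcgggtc
Rpl27a promoter, chr7:109518945-109519244, plus strand: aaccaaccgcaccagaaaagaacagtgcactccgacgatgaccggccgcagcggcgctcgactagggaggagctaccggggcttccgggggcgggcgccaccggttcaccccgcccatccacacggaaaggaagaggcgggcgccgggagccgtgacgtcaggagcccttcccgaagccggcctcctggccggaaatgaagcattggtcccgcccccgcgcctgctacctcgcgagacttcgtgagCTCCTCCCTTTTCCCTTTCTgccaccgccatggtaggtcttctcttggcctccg
The run was 20 bases long in Rpl27a and 9 in Snhg12, while in Snhg10 and Snhg3 the annotated first base is a G. Read on the strand of the gene, a run of at least 8 such bases over the start was found in 6 of the 26 host genes that have a promoter in the table (36 genes hold a tested small RNA), or 23.1%, and in 4.59% of all 27025 genes. These are 2410006H16Rik, Ipo7, Rack1, Rpl27a, Rplp2 and Snhg12. The letters describe the annotated starts and show nothing about which factor acts on them.

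Rnu12, the U12 small nuclear RNA, which serves the minor spliceosome and its rare class of introns, was at 6.28, 6.12 and 6.68 at day 3 and at 7.83 and 7.59 at day 5. Both day 5 samples lay above all day 3 samples, and the means differ by 1.35 ± 0.18 in log2 (SE; limma adjusted p = 0.104). Snora44, an H/ACA box RNA, was at 6.67, 6.50 and 6.16 at day 3 and at 7.93 and 7.75 at day 5, a difference of 1.40 ± 0.22 (SE; limma adjusted p = 0.263). The largest difference in the class belonged to Snora3, another H/ACA box RNA. Its signals were 9.39, 8.90 and 8.80 at day 3 and 10.80 and 10.31 at day 5, a difference of 1.53 ± 0.31 (SE; limma adjusted p = 0.717), and a second probe set of the gene gave 1.54. Snora73b, one of the U17 RNAs, which act in the cleavage of the ribosomal RNA precursor, was at 7.44, 7.28 and 7.14 and then at 8.30 and 8.04. Snora16a was at 7.27, 7.00 and 7.00 and then at 8.23 and 7.77. In each of these RNAs the 2 groups did not overlap, and the lower day 5 sample was replicate 3.

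Small RNAs as a class had higher values at day 5. Of the 54 small nucleolar and Cajal body RNAs with a symbol of their own on the array, 40 passed the filter on low values, and all 40 had a difference above 0, where 48.7% of all genes did. Their median difference was 0.57, from 0.05 to 1.53, against -0.0049 over all genes. In 32 of the 40 both day 5 samples lay above all day 3 samples, against 6.86% of all genes, and 30 had an unadjusted p under 0.05 with higher values, against 1.74%. Both structural classes took part: the 18 H/ACA box RNAs had a median of 0.64 and the 20 C/D box RNAs a median of 0.54. Without day 3 replicate 3 the median of the 40 was 0.43 and 39 had a difference above 0. In that fit 21 of the 40 had higher values at an unadjusted p under 0.05, as did 617 of all 12102 genes. Of the 14 RNAs under the filter, 12 had higher mean signals at day 5 and 2 lower, and 3 of them did not overlap between the days, all with higher values.

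Members differed in size of the difference more than in direction. Snora74a, within Snhg4, was at 8.63, 7.49 and 8.06 at day 3 and at 9.48 and 8.95 at day 5. Snora62, within the ribosomal protein gene Rpsa, was at 6.20, 5.78 and 5.56 and then at 7.02 and 6.69. Snord118, the U8 RNA needed to process the large-subunit ribosomal RNAs, was at 4.69, 4.76 and 4.42 and then at 5.55 and 5.47, and it is the tested member with the largest difference among the C/D box RNAs (0.89 ± 0.21, SE). At the other end, Snora70 was at 4.99, 5.42 and 5.31 and then at 5.46 and 5.11, and Snora75 within Ncl had a difference of 0.06 ± 0.19 (SE), and both overlapped between the days. Snora52, within Rplp2, was at 11.37, 11.20 and 11.03 at day 3 and at 11.55 and 11.52 at day 5, without overlap and with a difference of 0.33 ± 0.10 (SE). Near-identical copies such as Snora73a and Snora73b, or Snord15a and Snord15b, may share probe sequence and are not independent of each other.

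**Figure D1:**
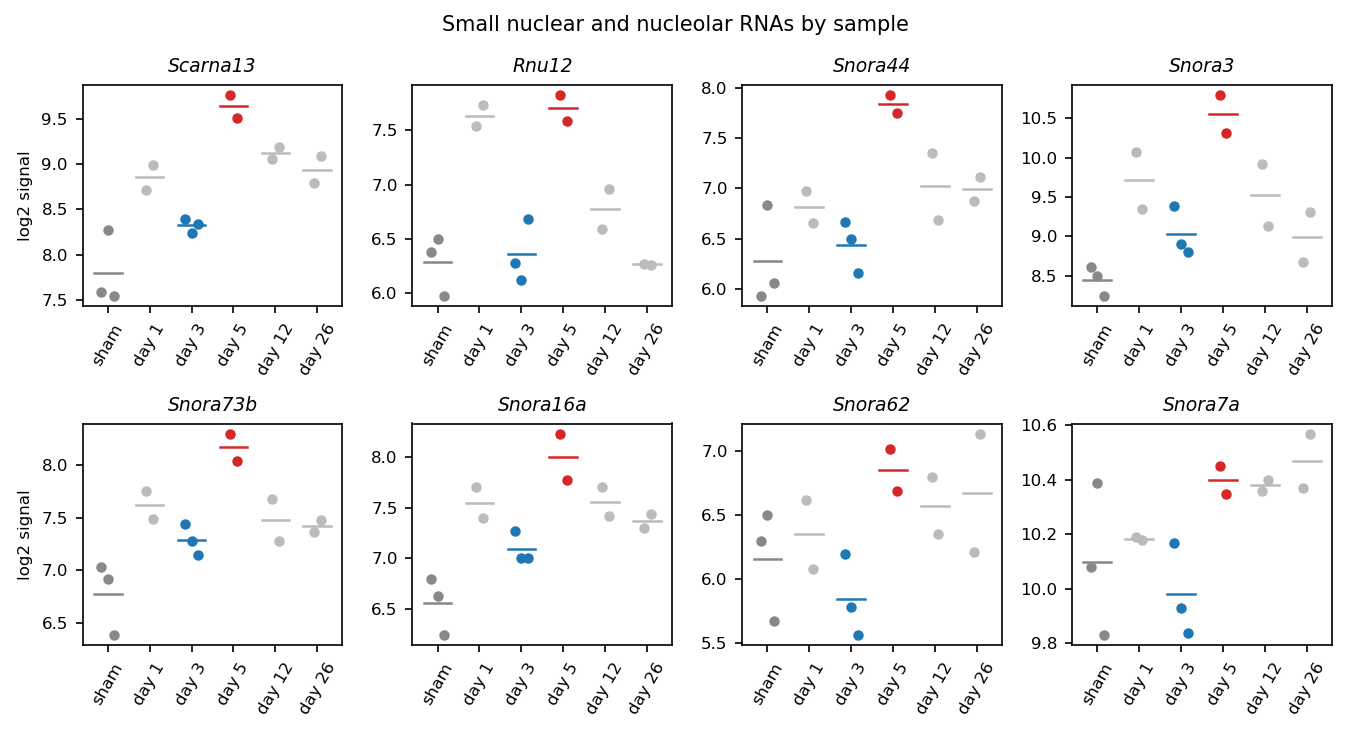
Log2 signal (vertical axis) of 8 small nuclear and nucleolar RNAs in each group of samples (horizontal axis); points are samples, lines are group means, and day 5 replicates 1 and 2 are 1 point. Day 5 (red) lies above day 3 (blue) in all 8, with Scarna13 at 9.77 and 9.51 against 8.24 to 8.40; grey groups took no part in the difference.

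The sham arrays and other proton days place these levels, although they entered no difference given here. Sham signals of Scarna13 were 7.59, 8.27 and 7.54, days 1, 12 and 26 lay between 8.72 and 9.19, and day 3 was the lowest of the proton groups. Rnu12 was at 7.54 and 7.73 on day 1, like day 5, and at 6.27 and 6.26 on day 26, like day 3. The day 5 mean was above every sham array in 38 of the 40 tested small RNAs, and the day 3 mean in 14.

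Some of the small RNAs could be set beside their host genes. Of the 40 RNAs, 19 lie within a protein-coding or noncoding gene that was itself tested, 17 different hosts in all. The hosts Snhg10, Snhg12, Snhg3 and Snhg4 were not among them. No host value therefore stands beside Scarna13, Snora44, Snora16a, Snora73b or Snora74a. The host differences had a median of -0.04 and ranged from -0.22 (Rps3a1) to 0.44 (Gas5), with 6 above 0, 11 below it, and 1 with higher values at an unadjusted p under 0.05. All 19 small RNAs had a larger difference than their host, with a median of 0.52. Rpl27a, the host of Snora3, was at 9.27, 9.43 and 9.46 at day 3 and at 9.33 and 9.28 at day 5, a difference of -0.08 ± 0.08 (SE). The ribosomal protein gene Rpsa, which holds Snora62, was at 8.94, 8.93 and 8.74 and then at 8.71 and 8.79. Gas5, a noncoding gene that carries many C/D box RNAs, differed from most of them: it was at 9.32, 9.04 and 9.03 at day 3 and at 9.73 and 9.41 at day 5, beside a difference of 0.66 ± 0.24 (SE) for Snord47 inside it. Its direction depended on the probe sets, since the mean over all probe sets of Gas5 gave -0.04. The spliced host RNA and the small RNA were read by different probe sets, so the array compares their differences and not their levels.

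**Figure D2:**
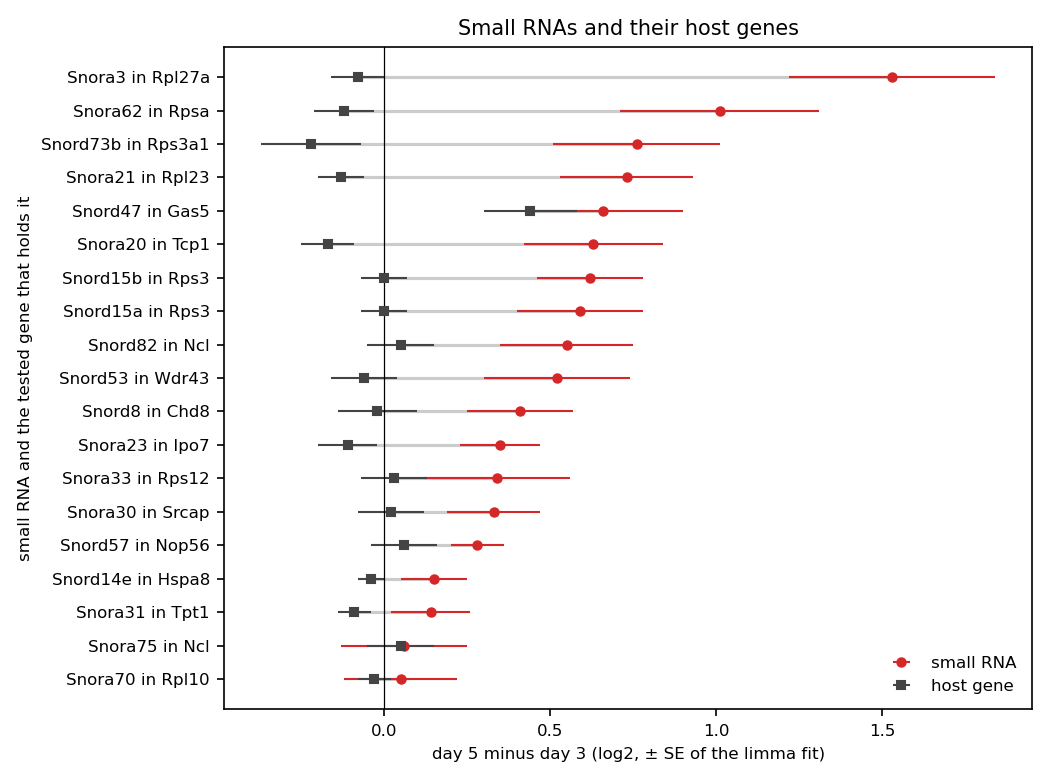
Day 5 minus day 3 (log2, horizontal axis, bars are the SE of the limma fit) for the 19 small RNAs that lie within a tested gene (red circles) and for that gene (black squares). Host genes sit between -0.22 and 0.44 and every small RNA lies to the right of its host, least so Snora75 in Ncl.

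A mixed list that includes proteins that carry these RNAs had no shared direction. Of 20 tested members of this list of spliceosome and small nucleolar particle proteins, which also holds Rnu12, the median difference was 0.02 (-0.02 without day 3 replicate 3), with 11 above 0 and 9 below. Without overlap 3 had higher values, Rnu12 among them, against 6.86% of all genes, and 2 lower, against 15%. Snu13, which binds the C/D box fold and the U4 RNA, was at 9.53, 9.54 and 9.58 at day 3 and at 9.78 and 9.72 at day 5. Dyskerin (Dkc1), the pseudouridine synthase of H/ACA particles, had a difference of 0.16 ± 0.14 (SE), and fibrillarin (Fbl), the methyltransferase of C/D particles, had 0.13 ± 0.13. Nop10, a small H/ACA protein, was at 9.82, 9.91 and 9.78 and then at 9.53 and 9.67. The 45 tested cytosolic ribosomal protein genes had a median of -0.05, with 3 higher and 6 lower without overlap, near or under the background. Ice1 is a subunit of the little elongation complex, which takes part in the transcription of small nuclear RNA genes. Its signals were 7.50, 7.56 and 7.59 at day 3 and 7.02 and 7.16 at day 5, a difference of -0.46 ± 0.10 (SE; limma adjusted p = 0.717).

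MicroRNA genes, another class of short transcripts cut from longer ones, gave no such shift. Of 300 on the array 69 passed the filter, and the median difference was 0.05 (-0.06 without day 3 replicate 3). Of the 69, 4 in each direction did not overlap between the days. Over all genes 6.86% did so with higher and 15% with lower values. Of 10 other structural RNAs, 9 had higher mean signals at day 5. The list holds Rnu12 and was chosen after the values were seen. In 7 the days did not overlap, with higher values, and the median difference was 0.51. The share of all genes tested was 6.86%, while 8 of the 10 passed the filter for testing. The ribosomal 5S RNA gene n-R5s136 was at 7.52, 7.22 and 7.12 at day 3 and at 8.14 and 7.82 at day 5, and Rmrp, the RNA of RNase MRP, was at 10.65, 10.29 and 10.19 and then at 10.78 and 10.75. The vault RNA Vaultrc5 was at 7.61, 7.80 and 6.71 at day 3 and at 8.79 and 8.29 at day 5. The telomerase RNA Terc was at 6.77, 6.62 and 6.13 and then at 7.07 and 6.87. The RNase P RNA Rpph1 overlapped, at 11.58, 11.39 and 11.18 against 11.56 and 11.61, and 7SK RNA (Rn7sk) was at 12.56, 12.55 and 12.53 and then at 12.62 and 12.63. Within day 3 the mean deviation of the 40 small RNAs was -0.04, -0.25 and -0.41 in replicates 1, 2 and 3, and at day 5 it was 0.49 and 0.21; the part of RNA recovery or quality in these values was not tested.

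Genes of glucose handling had lower values at day 5. Of 26 tested genes of glycolysis, glucose transport and glycogen, 24 had a difference below 0, where 51.3% of all genes did, and the median was -0.16. In 16 of the 26 both day 5 samples lay below all day 3 samples, against 15% of all genes, and 9 had an unadjusted p under 0.05 with lower values, against 3.59%. None passed the adjusted threshold. Without day 3 replicate 3 the median was -0.15 and 25 had a difference below 0. In that fit 7 had lower values at that p, as did 394 of all 12102 genes.

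The first of them by p was Pfkfb2, the heart form of the enzyme that makes and removes fructose 2,6-bisphosphate, the activator of phosphofructokinase. Its signals were 9.23, 9.04 and 9.22 at day 3 and 8.51 and 8.62 at day 5, means that differ by -0.60 ± 0.10 in log2 (SE; limma adjusted p = 0.41). Phka1, the muscle regulatory subunit of phosphorylase kinase, which switches on glycogen breakdown, was at 9.19, 8.89 and 9.00 and then at 8.23 and 8.51, a difference of -0.66 ± 0.14 (SE). Genes of glycogen building had lower values too. Ugp2, which makes UDP-glucose, was at 9.83, 9.64 and 9.70 and then at 9.32 and 9.42. Gys1, the muscle glycogen synthase, was at 9.50, 9.60 and 9.59 and then at 9.12 and 9.28. The branching enzyme Gbe1 had a difference of -0.30 ± 0.11 (SE) and the primer protein glycogenin (Gyg) one of -0.16 ± 0.06. In the lower part of glycolysis Pgk1, phosphoglycerate kinase, was at 10.41, 10.37 and 10.30 and then at 9.96 and 10.12. The insulin-regulated glucose transporter Slc2a4 overlapped between the days, with a difference of 0.04 ± 0.07 (SE), and the muscle phosphorylase Pygm did so with -0.09 ± 0.07.

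Irs1, the adaptor that the insulin receptor phosphorylates, was at 7.30, 7.36 and 7.44 at day 3 and at 6.95 and 6.73 at day 5, a difference of -0.53 ± 0.11 (SE; limma adjusted p = 0.717). Its relative Irs2 was at 7.50, 7.16 and 6.71 and then at 6.33 and 6.41, with a wider spread at day 3. A second, dim probe set of Irs1 gave 0.08, while one of Ppargc1a, a regulator described further on, gave -0.54. The promoters of Pfkfb2 and Irs1 are shown because both hold the E-box CACGTG, a palindrome read on both strands and marked in capitals, which basic helix-loop-helix factors such as Usf1 and the clock proteins can bind.
Pfkfb2 promoter, chr1:130715772-130716071, minus strand: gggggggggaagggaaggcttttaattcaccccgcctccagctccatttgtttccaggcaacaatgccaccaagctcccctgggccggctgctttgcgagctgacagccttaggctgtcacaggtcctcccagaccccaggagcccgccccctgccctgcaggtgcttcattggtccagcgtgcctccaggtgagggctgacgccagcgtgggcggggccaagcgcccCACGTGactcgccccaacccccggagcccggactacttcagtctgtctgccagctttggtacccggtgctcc
Irs1 promoter, chr1:82291390-82291689, minus strand: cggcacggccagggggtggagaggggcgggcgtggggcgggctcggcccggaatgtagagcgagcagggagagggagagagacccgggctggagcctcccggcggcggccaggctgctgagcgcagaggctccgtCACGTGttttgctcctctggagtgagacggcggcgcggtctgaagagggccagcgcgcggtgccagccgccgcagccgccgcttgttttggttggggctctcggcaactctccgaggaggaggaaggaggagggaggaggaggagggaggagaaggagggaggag
The 6 letters were found in 5 of the 25 tested genes of the glycolysis and glycogen list that have a promoter in the table (20%), namely Pfkfb2, Gyg, Ldha, Pfkm and Ppp1r3c, and in 8.09% of all genes. A match is a description of these windows and not evidence of binding. The 19 tested genes of the core clock and clock output had a median difference of -0.01, with 8 above 0 and 11 below. Without overlap 0 had higher values, against 6.86% of all genes, and 3 lower, against 15%. The core gene Arntl, whose protein binds such a box with Clock, was at 6.63, 6.52 and 6.75 and then at 6.32 and 6.08. The clock output gene Dbp overlapped, at 8.72, 9.07 and 8.75 against 9.20 and 9.04. The time of day of the isolations is not given in the sources used here.

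Genes of the citric acid cycle had lower values too, with smaller differences. Of 26 tested genes of the citric acid cycle and pyruvate entry, 21 had a difference below 0, the median was -0.11, 16 did not overlap with lower values, against 15% of all genes, and 9 had lower values at an unadjusted p under 0.05, against 3.59%. That last count was 6 without day 3 replicate 3, where 394 of all 12102 genes had lower values at that p. Suclg1, a subunit of succinyl-CoA synthetase, was at 9.54, 9.62 and 9.67 at day 3 and at 9.33 and 9.31 at day 5, a difference of -0.29 ± 0.07 (SE). Citrate synthase (Cs), the entry enzyme of the cycle, had a difference of -0.19 ± 0.05 (SE). Idh3a, the catalytic subunit of mitochondrial isocitrate dehydrogenase, was at 10.78, 10.91 and 10.95 and then at 10.51 and 10.67, and fumarase (Fh1) was at 10.41, 10.46 and 10.50 and then at 10.15 and 10.24. In each of these 4 genes both day 5 samples lay below every day 3 sample, with a small difference beside a small spread. Outside the list, Got1, the cytosolic aspartate aminotransferase of the malate-aspartate shuttle, was at 11.74, 11.82 and 11.82 and then at 11.55 and 11.62.

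In the respiratory chain the counts without overlap were 14 of 35 for complex I and 13 of 38 for complexes II to V, with lower values, against 15% of all genes. The medians were -0.07 and -0.02, and 6 and 4 genes had an unadjusted p under 0.05 with lower values, against 3.59% of all genes. Ndufb3, an accessory subunit of complex I, was at 8.79, 8.90 and 8.84 at day 3 and at 8.61 and 8.51 at day 5. Atp5l, a subunit of the ATP synthase membrane part, was at 10.78, 10.74 and 10.60 and then at 10.50 and 10.45. Complex I had 0 genes under that p without day 5 replicate 3, and without day 3 replicate 2 its median was -0.02 and that of complexes II to V was 0.01, so these values depend on single samples. With a covariate built from markers of other cells the medians were -0.01 and 0.02. Fatty acid uptake and oxidation, with 29 tested genes and a median of -0.05, had 7 genes without overlap with lower values, against 15% of all genes. Among the 7 was the long-chain dehydrogenase Acadl with a difference of -0.19 ± 0.06 (SE). The highest difference of the list was 0.38, in Angptl4, an inhibitor of lipoprotein lipase.

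**Figure D3:**
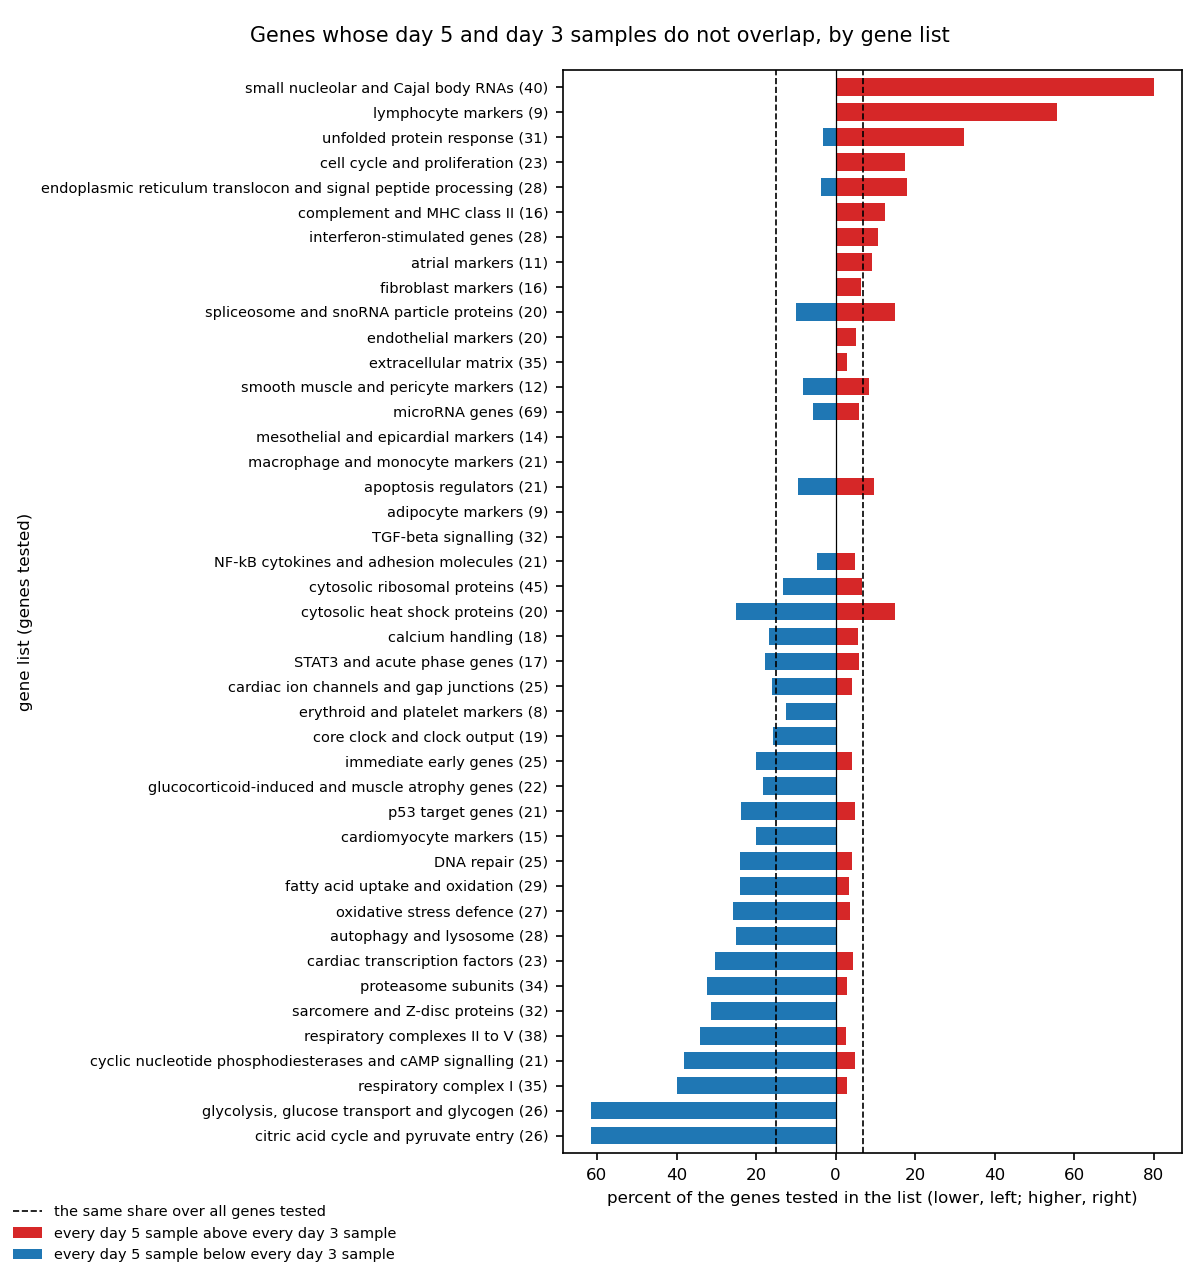
Percent of the tested genes of each of 43 gene lists with at least 8 such genes (vertical axis, number in brackets) whose day 5 samples all lie above (red, right) or all below (blue, left) the day 3 samples. Dashed lines give the same shares over all genes tested, 6.86% and 15%; 32 of 40 small RNAs lie to the right and 16 of 26 genes in each of the 2 lowest lists to the left.

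Regulators of muscle metabolism and structure had lower values as well. Ppargc1a, the coactivator PGC-1alpha that drives mitochondrial genes, was at 10.72, 10.55 and 10.62 at day 3 and at 10.15 and 10.19 at day 5, means that differ by -0.46 ± 0.10 in log2 (SE; limma adjusted p = 0.717). Of 23 tested cardiac transcription factors, 18 had a difference below 0 (51.3% of all genes did), 7 did not overlap with lower values (15%) and 5 had lower values at an unadjusted p under 0.05 (3.59%). The 5 were Ppargc1a, Klf15, Prox1, Hand2 and Esrrg. Esrrg, a nuclear receptor of mitochondrial genes that Ppargc1a coactivates, was at 7.84, 7.86 and 7.87 and then at 7.73 and 7.51. Mef2c, a factor of muscle differentiation, had higher values, at 8.04, 8.06 and 7.93 and then at 8.25 and 8.15. The count of 5 was 1 without day 3 replicate 2 and 2 without day 3 replicate 1. Of all 12102 genes, 272 and 447 had lower values at that p in these fits.

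Ctnnal1, alpha-catulin, a relative of the alpha-catenins of cell junctions, had the smallest p among the lower genes. It was at 8.39, 8.49 and 8.61 at day 3 and at 7.53 and 7.72 at day 5, a difference of -0.87 ± 0.11 (SE; limma adjusted p = 0.071). Ehd4, a protein of endocytic recycling, was at 10.11, 10.13 and 10.14 and then at 9.76 and 9.82, so its groups stood apart with a small difference. Pdlim3, a Z-disc protein, was at 8.07, 8.04 and 8.36 and then at 7.31 and 7.49. Of the 32 tested sarcomere and Z-disc genes 10 did not overlap with lower values, against 15% of all genes, and 5 had lower values at an unadjusted p under 0.05, against 3.59%, among them desmin (Des), the intermediate filament of muscle, at 11.28, 11.30 and 11.25 and then at 11.01 and 11.18. That count was 1 without day 3 replicate 1, where 447 of all 12102 genes had lower values at that p. The main contractile genes Actc1, Myl2 and Tnni3 overlapped between the days.

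Trim63, the ubiquitin ligase MuRF1 of muscle atrophy, was at 9.33, 9.41 and 9.14 at day 3 and at 8.78 and 8.90 at day 5. Lcn2, lipocalin 2, an iron-binding acute phase protein, was at 8.70, 8.90 and 9.35 and then at 7.99 and 8.21, a difference of -0.88 ± 0.27 (SE; limma adjusted p = 0.798). The list of 22 tested glucocorticoid-induced and atrophy genes that holds Trim63 was near the background, with 4 lower without overlap against 15% of all genes, and its median of -0.11 turned to 0.07 without day 3 replicate 3. The proteasome list had a median of -0.13 over 34 tested genes, with 11 lower without overlap against that 15%, while 1 had lower values at an unadjusted p under 0.05, against 3.59% of all genes. Pde7a, a phosphodiesterase that breaks down cAMP, was at 8.67, 8.57 and 8.73 and then at 8.19 and 8.38, and both groups were above its sham signals of 7.80, 7.77 and 7.71.

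Where the day 5 levels lay beside the rest of the series differed by gene. In Ctnnal1, Pfkfb2, Ppargc1a, Irs1 and Trim63 all day 3 samples were above all sham arrays, and day 5 lay within the sham range in Ctnnal1, Pfkfb2 and Ppargc1a, whose sham signals were 10.37, 10.25 and 9.97. In Trim63 both day 5 samples lay below the sham range of 8.92 to 9.05, and in Irs1 day 5 replicate 3 lay below that of 6.83 to 7.07. In Suclg1 day 3 was at 9.54 to 9.67 beside sham at 9.56 to 9.72, and days 5, 12 and 26 lay between 9.31 and 9.45. Ehd4 had sham signals of 10.23, 10.14 and 10.27, and days 5, 12 and 26 lay between 9.73 and 9.93.

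**Figure D4:**
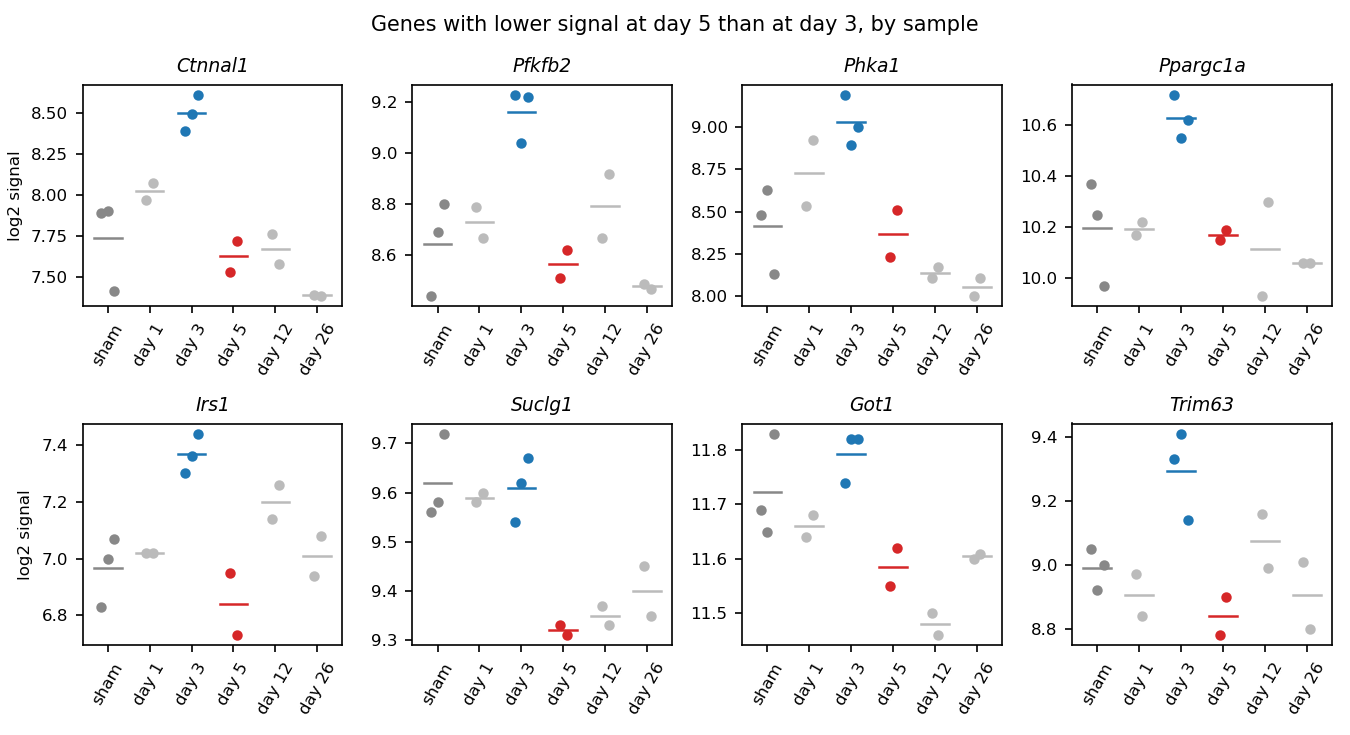
Log2 signal (vertical axis) of 8 genes with lower values at day 5, in each group of samples (horizontal axis); points are samples and lines are group means. Day 5 (red) lies below day 3 (blue) in all 8; in Ctnnal1 day 3 is at 8.39 to 8.61 and every other sample is at 8.07 or below, while in Suclg1 day 3 (9.54 to 9.67) lies beside sham (9.56 to 9.72).

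Beyond the small RNAs, the coding genes with higher values and the smallest p were a mixed group. Gpr22, an orphan receptor of heart and brain, was at 8.23, 7.96 and 7.76 at day 3 and at 8.81 and 8.61 at day 5, a difference of 0.73 ± 0.14 (SE; limma adjusted p = 0.717). Tmem109, a membrane protein of the endoplasmic reticulum and nuclear envelope, was at 9.09, 9.02 and 8.90 and then at 9.38 and 9.36. Tmem47, a junction-associated membrane protein, was at 9.43, 9.46 and 9.27 and then at 9.79 and 9.72. The unfolded protein response had a median of 0.12 over 31 tested genes, with 10 higher without overlap, against 6.86% of all genes, and 1 lower, against 15%. With the covariate of other-cell markers its median was 0.04. Dnajb9, a cochaperone of the chaperone Hspa5, was at 8.85, 8.82 and 9.01 and then at 9.27 and 9.02. In the list 1 gene had higher values at an unadjusted p under 0.05, against 1.74% of all genes. Without day 3 replicate 3 the count was 7, where 617 of all 12102 genes had higher values at that p. In lists of the damage response few genes had an unadjusted p under 0.05. Of 21 p53 target genes 1 had higher values at that p (Sesn2), against 1.74% of all genes, and 1 lower (Sesn1), against 3.59%. Of 25 DNA repair genes H2ax was higher at that p and Mdc1 lower. Without overlap, 5 p53 target genes and 6 DNA repair genes had lower values, against 15% of all genes, and 1 in each list higher, against 6.86%. Of the DNA repair genes 18 had a difference below 0, where 51.3% of all genes did.

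The largest difference of all genes tested was that of a T cell gene. Of 21 lymphocyte markers 9 passed the filter on low values, some of them, such as Cd8b1, through the groups in which they are high, so their counts support no direction for the list. Without the filter 18 markers had a median difference of 0.54, with 17 above 0. Of these 18, 6 had higher values at an unadjusted p under 0.05, as did 405 of all 19937 genes. Among the 9 the median was 0.65, and it was 1.24 without day 3 replicate 3, 0.97 without day 5 replicate 3 and 0.52 without day 3 replicate 2. The 9 held 4 genes with higher values at that p, against 1.74% of all genes. The count was 6 without day 3 replicate 3 and 2 without day 3 replicate 2, where 617 and 178 of all 12102 genes had higher values at that p. Cd8b1, the beta chain of the CD8 coreceptor, was at 4.46, 3.76 and 3.91 at day 3 and at 7.29 and 7.08 at day 5, means that differ by 3.14 ± 0.61 in log2 (SE; limma adjusted p = 0.717). Its partner chain Cd8a was at 4.80, 4.30 and 4.04 and then at 5.85 and 5.55. Thy1, shared by T cells and fibroblasts, was at 5.42, 4.90 and 5.95 and then at 6.39 and 6.55, and Cd3e, a chain of the T cell receptor complex, was at 6.17, 5.88 and 5.50 and then at 6.37 and 6.34. The B cell genes Cd79a and Cd79b overlapped between the days. The spread among the other proton days was wide for these genes, which sets their large SE: Cd8b1 was at 5.99 and 4.52 at day 1, 4.23 and 6.52 at day 12 and 7.66 and 7.16 at day 26. In a fit of the day 3 and day 5 samples alone Cd8b1 passed. In a bulk sample, more cells of a type and more RNA per cell cannot be told apart.

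A list of immature T cell genes, which also holds general T cell genes such as Cd3e, Cd4 and Cd8a, was looked at after these values were seen. Of its 17 genes, 6 passed the filter on low values. All 17 had higher mean signals at day 5 and 15 did not overlap, while Ptcra and Cd3d overlapped. The share of 6.86% without overlap over all genes covers only genes above the filter and is no measure for the rest. Rag1, part of the recombinase that assembles antigen receptor genes, was at 2.44, 2.63 and 2.83 at day 3 and at 5.22 and 5.10 at day 5. Ccr9, a homing receptor of thymocytes and gut lymphocytes, was at 2.60, 2.54 and 2.24 and then at 5.76 and 5.71, and the mean level of the 17 genes was 3.92 to 4.01 at day 3 and 5.31 to 5.40 at day 5. In sham it was 3.99 to 4.16. Rag1 at the other proton days was at 4.37 and 2.78, 3.11 and 4.53, and 5.97 and 5.24 (days 1, 12 and 26). The part of such cells in the other differences was not tested.

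Most of a list of airway genes, chosen likewise after their values were seen, also had higher values at day 5, with a wide spread at day 3. Scgb1a1, the club cell secretoglobin of the airway, was at 8.74, 8.71 and 10.37 at day 3 and at 11.27 and 11.15 at day 5. Of 12 airway genes 11 did not overlap with higher values at day 5, and the median difference was 1.52. The exception was Foxj1, at 5.58, 5.62 and 5.32 at day 3 and at 5.29 and 5.58 at day 5. The share of all genes tested was 6.86%, while 10 of the 12 passed the filter for testing. The xenobiotic enzyme Cyp2f2 was at 6.49, 6.41 and 8.36 and then at 9.11 and 9.21, and the secreted protein Bpifa1 was at 7.83, 7.98 and 10.01 and then at 10.57 and 10.27. Day 3 replicate 3 was the highest of its group in Scgb1a1, Cyp2f2 and Bpifa1. The sham arrays ranged as widely, with Scgb1a1 at 7.95, 10.65 and 5.96, and 5 alveolar genes, among them the surfactant gene Sftpc at 3.61, 3.49 and 3.19 and then at 2.38 and 3.56, had a median difference of 0.01. The part of airway RNA in the other results was not tested.

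**Figure D5:**
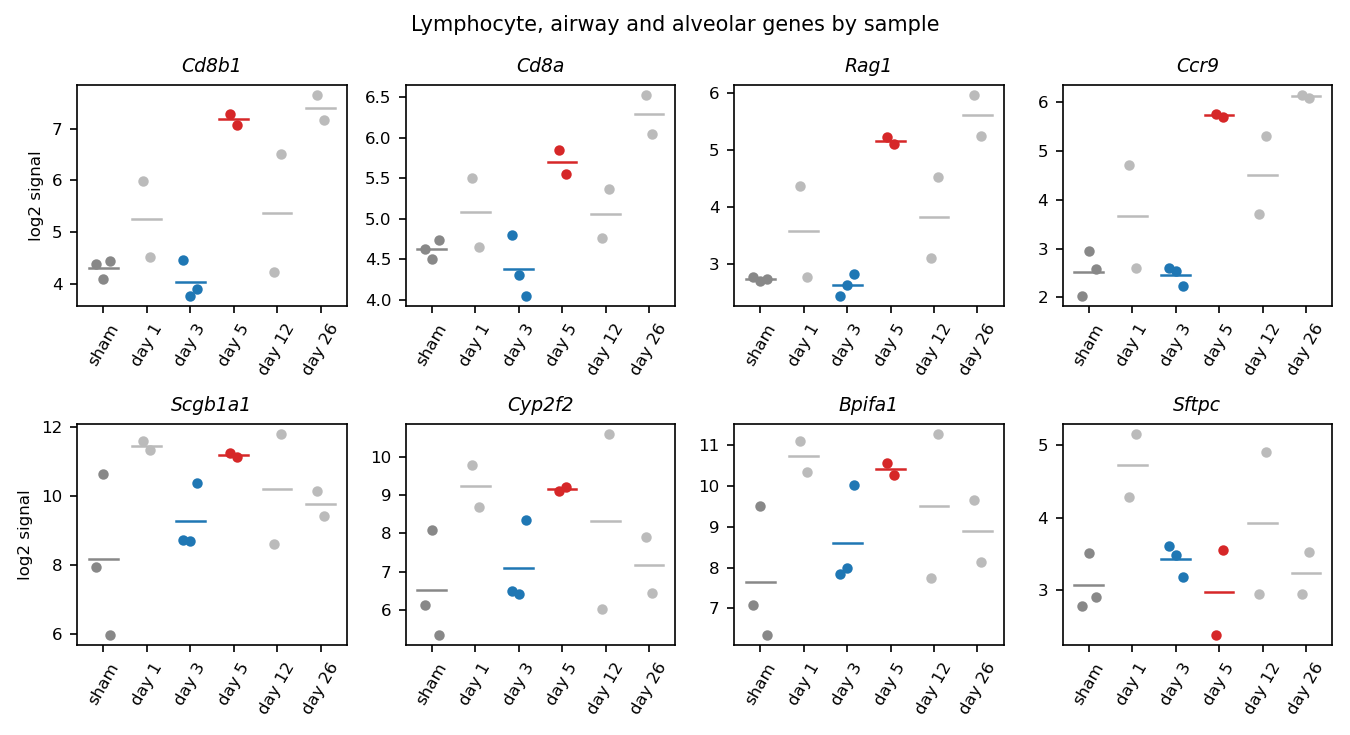
Log2 signal (vertical axis) of lymphocyte genes (Cd8b1, Cd8a, Rag1, Ccr9), airway genes (Scgb1a1, Cyp2f2, Bpifa1) and the alveolar gene Sftpc in each group of samples (horizontal axis); points are samples and lines are group means. The T cell genes are low in sham and day 3 (Cd8b1 at 3.76 to 4.46) and high at days 5 and 26, with day 1 and day 12 samples split; the airway genes are spread within most groups.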

How the data were processed

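The deposited table holds log2 signals, one column per array, used as they were; the authors' processing names MAS5, per the submitters' processing notes, and background correction, normalization and genome build are not given in the sources used here. Of the probe sets, 21640 carried 1 gene symbol in the platform's annotation, and 21553 of these matched RefSeq (GRCm38.p6), which gave current symbols and host genes. Each of 19937 genes was read from its probe set of highest mean over the 15 arrays. The 12 proton arrays entered limma 3.58.1 in R 4.3.3 as 11 samples in 5 groups (lmFit, eBayes with a variance trend; 6 residual degrees of freedom, 9.56 in the moderated test), with Benjamini-Hochberg adjustment over every gene in the fit. Each SE is that of the fit. List means are deviations from each gene's mean over the 5 samples of day 3 and day 5. The comparison and the 45 gene lists were chosen with earlier results of these data known. The rule named, in each direction, the 12 smallest p and the 8 largest differences among non-overlapping genes with an unadjusted p under 0.05, up to 4 called members of each list or else the 2 largest differences, and a fixed set of genes; histone, airway, immature T cell and structural RNA genes and other members of lists were chosen after their values were seen. The code was checked on simulated data. Same-numbered samples of the 2 days had correlations of deviations of -0.212, 0.0433 and -0.139. As day 5 replicates 1 and 2 are nearly equal, these values cannot show whether the numbers pair the samples. The labels do not say that they do.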

Additional observations from a re-analysis of the deposited data

How the results depend on the processing

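The count of 1 gene called higher and 0 called lower depended on the setting. The count called higher was 0 with equal array medians, without a variance trend, with a plain linear model and with sham arrays in the fit (7 groups, or 6 groups, the latter chosen after seeing the data). It was 3 with array weights, 2 with day 3 and day 5 samples alone, 3 with 12 arrays as separate samples and 18 with a covariate built from markers of other cells. The count called lower was 1, Ctnnal1, with the filter at the 75th percentile, a robust variance, array weights or 7 groups; it was 2 with 12 arrays as separate samples and 6 with the marker score. The replicate block on 12 arrays as separate samples gave 5 higher and 1 lower, although the labels do not say that the numbers pair the samples. Leaving out 1 array gave 0 to 2 genes higher and 0 lower: 0 higher without day 3 replicate 1, day 3 replicate 2 or day 5 replicate 3, and 2 without day 3 replicate 3. With day 3 and day 5 samples alone and day 3 replicate 3 left out, chosen after seeing the data, 332 genes were called higher and 32 lower. Scarna13 had a difference of 1.26 to 1.44 and an adjusted p of 0.000734 to 0.29 over 28 alternatives, past the threshold in 20 and not in 8; Ctnnal1 ranged from -0.97 to -0.82. Equal array medians shifted the median of all genes from -0.0049 to -0.05. The median of the 40 small RNAs was 0.52 with equal array medians and 0.65 with the marker score, and that of the glycolysis and glycogen list was -0.21 and -0.16. Near 0 some directions turned. Gas5 was at -0.04 as the mean of its probe sets, Slc2a4 at -0.01 with equal array medians, Snora70 at -0.01 with array weights (-0.07 to 0.22 with 1 array left out), and Snora75 at -0.02 with the marker score (-0.03 to 0.26). Actc1 lay between -0.06 (quantile normalization) and 0.01, with -0.01 to 0.01 with 1 array left out and -0.05 with equal medians. Myl2 lay at -0.05 with equal medians and at -0.02 to 0.02 with 1 array left out. With day 3 and day 5 samples alone and without day 3 replicate 3, Actc1 was at -0.01 and Myl2 at -0.02.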

Other observations

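Histone genes, most of them made for DNA replication, were looked at after their values were seen. H2ac15 was at 7.29, 7.00 and 7.55 at day 3 and at 8.19 and 8.63 at day 5, H2ac1 was at 6.83, 6.93 and 6.76 and then at 7.32 and 7.87, and the damage-linked variant H2ax was at 5.62, 5.91 and 5.71 and then at 6.34 and 6.23. Of 29 histone genes tested, 13 did not overlap with higher values, against 6.86% of all genes, and 3 with lower values, against 15%. The linker histone H1f2 was among the lower ones, at 9.52, 9.53 and 9.80 and then at 9.00 and 9.22. Histone genes are near-identical copies, so probes may read several of them. Of 23 tested cell cycle genes, 18 had a difference above 0, where 48.7% of all genes did. Of the 23, 4 had higher values without overlap, against 6.86%, and 2 at an unadjusted p under 0.05, against 1.74%. The proliferation marker Mki67 was at 4.38, 4.16 and 4.74 and then at 5.04 and 5.59, within its sham range of 4.95 to 5.79 at day 5.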
